A study of Mus musculus with 12 samples.

Results

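The hypoxia response genes described here are 10 genes of the pathway around the hypoxia-inducible factors (HIF): the HIF subunits Hif1a and Epas1, the oxygen-sensing hydroxylases Egln1 and Egln3, and the HIF target genes Vegfa, Adm, Pfkfb3, Bnip3, Ndrg1 and Ankrd37. They were picked by name among the 52636 Ensembl gene identifiers of the count files. The choice was made knowing that Egln3 was lower in p53 knockout liver, so every knockout against wild-type value of these 10 genes is given as a description, without a test. All 10 passed the filter on low counts, which 14433 genes passed in all. RNA was sequenced from the liver of C57BL/6 mice aged 12 weeks that were of p53 genotype wild type (wt) or knockout (ko) and received a normal diet or HFD, the usual abbreviation of high-fat diet. The groups were wt_normal, ko_normal, wt_HFD and ko_HFD, with 3 libraries in each of the 4. The sources used here do not give how the knockout was made, whether it was limited to the liver, how long the diet lasted or the feeding state at sampling. No label ties each library to an animal of its own, so the p-values rest on a spread among libraries that may be partly technical.

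In cells with enough oxygen, prolyl hydroxylases of the EGLN family modify the HIF alpha subunits, which the VHL ubiquitin ligase then marks for destruction. When oxygen is scarce the alpha subunits persist, pair with ARNT and bind DNA at hypoxia response elements, whose core is ACGTG or GCGTG. The oxygen level that reaches hepatocytes is lower near the central vein than near the portal vein, and Egln3 and Egln1 are themselves HIF targets that feed back on the pathway. Protein stability, the main point of control of the alpha subunits, is not measured by RNA sequencing.

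The targeted gene Trp53 had a normalised read count (CPM, counts scaled to a common library size) of 16.3, 14.5 and 15.6 in wt_normal and 8.54, 10.7 and 24.5 in wt_HFD, against 0.273 to 1.62 in the 6 ko libraries, so that every ko library was below every wt library. The libraries held 15465187 to 20492567 counts each. The tissue label was checked with 5 hepatocyte markers, whose summed level lay between 36584 and 73651 CPM. Library wt_normal replicate 2 stood apart: 10 skeletal muscle markers summed to 9837 CPM there and to at most 15.6 CPM elsewhere, and 5 B cell markers summed to 142 CPM against at most 11.8 CPM. Mitochondrially encoded genes took 14.6% of the counts of ko_normal replicate 1 and 10.3% of those of ko_HFD replicate 2, while the range over the other 10 was 4.18% to 7.22%. Values that moved by over 1.5 times or turned in sign without these 3 libraries are given both ways for the differences that the text turns on.

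The 250 bases upstream of the RefSeq start (build GRCm38.p6) are shown for Egln3, the gene that separated the genotypes most, for its paralog Egln1, for Bnip3, which had the most motif matches, and for the first of the 2 Vegfa starts in the RefSeq table, which had none. Capitals mark ACGTG and GCGTG on either strand (read as CACGT and CACGC on the opposite strand), and overlapping matches count separately. All 4 genes lie on the minus strand, and the windows are chr12:54203875-54204124, chr8:124949255-124949504, chr7:138909507-138909756 and chr17:46032378-46032627 in this order.
Egln3: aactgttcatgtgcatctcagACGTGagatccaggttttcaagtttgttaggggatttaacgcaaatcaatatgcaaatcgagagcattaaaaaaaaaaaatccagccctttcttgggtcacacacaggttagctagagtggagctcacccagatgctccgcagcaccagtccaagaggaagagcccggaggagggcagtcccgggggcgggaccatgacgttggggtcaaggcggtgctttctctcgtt
Egln1: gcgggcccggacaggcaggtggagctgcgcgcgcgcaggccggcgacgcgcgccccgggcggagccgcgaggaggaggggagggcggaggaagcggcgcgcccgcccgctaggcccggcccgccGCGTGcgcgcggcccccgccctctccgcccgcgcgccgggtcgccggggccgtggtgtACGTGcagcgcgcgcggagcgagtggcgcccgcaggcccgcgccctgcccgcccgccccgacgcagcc
Bnip3: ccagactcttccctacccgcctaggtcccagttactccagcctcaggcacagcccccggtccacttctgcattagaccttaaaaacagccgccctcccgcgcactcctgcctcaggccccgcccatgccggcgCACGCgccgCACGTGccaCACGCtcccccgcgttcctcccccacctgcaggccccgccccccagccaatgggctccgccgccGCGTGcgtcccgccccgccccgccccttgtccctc
Vegfa: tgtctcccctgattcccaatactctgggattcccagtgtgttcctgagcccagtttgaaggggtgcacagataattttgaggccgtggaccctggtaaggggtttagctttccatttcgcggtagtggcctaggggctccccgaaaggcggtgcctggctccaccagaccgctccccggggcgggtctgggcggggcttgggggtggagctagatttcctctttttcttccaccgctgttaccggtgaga
Egln3 held 1 match, whose first base lay 229 bases before the start, Egln1 held 2 and Bnip3 held 5. The RefSeq table had 10 promoters for 8 of the 10 genes, and Epas1 and Ndrg1 were not among them. Of these 10 windows, 9 held at least 1 of the 2 motifs and 8 held ACGTG. Pfkfb3 and Vegfa had 2 windows each, so these are counts of windows and not of genes. The second windows of both, and those of Ankrd37 and Hif1a, lay inside the gene by the positions given below. Both Vegfa matches were in its second window. Among all 32851 windows of the same length, 38.6% held at least 1 of the motifs, 16.6% held ACGTG and 28.2% held GCGTG. These matches describe the letters only, and no binding was measured.

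Egln3 was the gene of the set with the widest separation between genotypes: its mean was 14.4 ± 4.0 CPM (SD, n = 6) in wt and 5.38 ± 1.7 CPM (n = 6) in ko, a ratio of 2.67. The other 9 genes were at overlapping levels in the 6 wt and the 6 ko libraries. Ndrg1 was lower and Vegfa higher in every ko_normal than in every wt_normal library, but neither separation held on HFD. HFD changed none of the 10 at an adjusted p under 0.05 in either genotype.

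**Figure D1:**
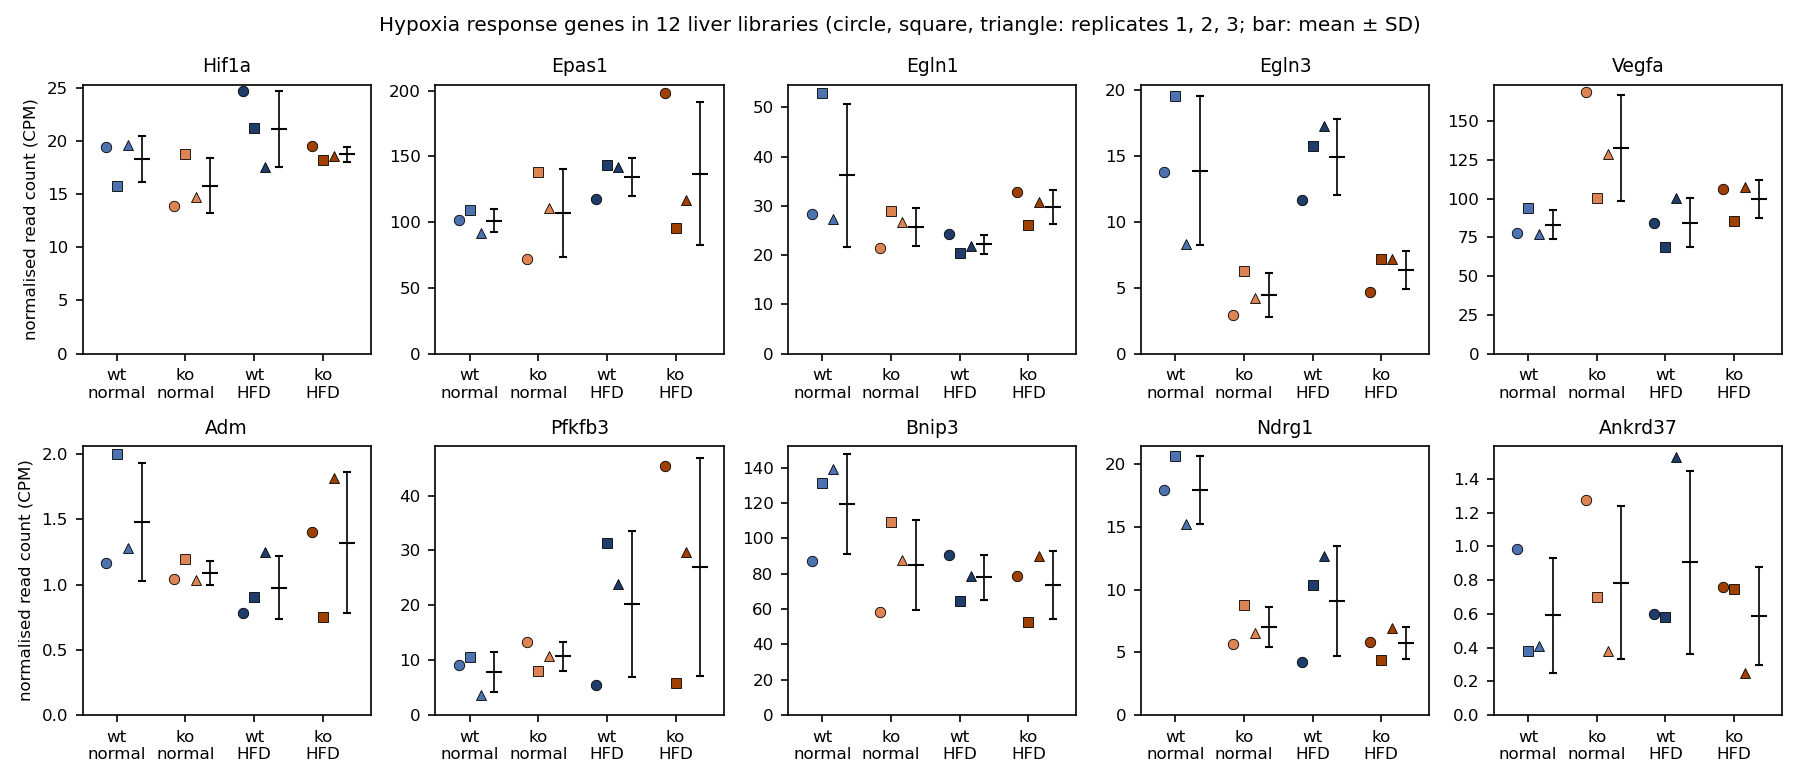
Normalised read count (CPM, linear axis from 0) of the 10 genes in each of the 12 libraries, by group; circles, squares and triangles are replicates 1, 2 and 3 and bars are the mean ± SD of 3 libraries. The 6 ko libraries of Egln3 lie between 2.90 and 7.15 CPM, all below the 6 wt libraries, which lie between 8.28 and 19.6 CPM.

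Among the HIF alpha subunits, Hif1a (chromosome 12, 73901375 to 73947530, build GRCm38), which encodes the widely expressed alpha subunit, was at 19.4, 15.8 and 19.6 CPM in wt_normal, 13.8, 18.8 and 14.8 in ko_normal, 24.7, 21.2 and 17.6 in wt_HFD and 19.6, 18.2 and 18.6 in ko_HFD. The 4 groups overlapped, and the highest library was 1.78 times the lowest, the narrowest range of the 10 genes. Epas1 (chromosome 17, 86753700 to 86833410) encodes HIF-2 alpha, which is also made by endothelial cells. It was at 102, 109 and 91.7 CPM in wt_normal, 71.7, 138 and 111 in ko_normal, 118, 143 and 142 in wt_HFD and 198, 95.6 and 117 in ko_HFD. Every wt_HFD library lay above every wt_normal library, while the ko groups overlapped and varied widely. Per kilobase of exon, Epas1 averaged 21.4 CPM and Hif1a 3.14 CPM over the 12 libraries, and the lowest Epas1 library, at 12.8, lay above the highest Hif1a library, at 4.19.

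Egln1 (chromosome 8, 124908587 to 124949324) encodes the main HIF prolyl hydroxylase. Its level was 28.4, 53.0 and 27.3 CPM in wt_normal, 21.5, 29.0 and 26.8 in ko_normal, 24.3, 20.3 and 21.8 in wt_HFD and 32.8, 26.0 and 30.7 in ko_HFD. The value of 53.0 CPM came from the library with muscle transcripts, and the remaining 11 libraries lay between 20.3 and 32.8 CPM. On HFD the 3 ko libraries were above the 3 wt libraries, as in 6.7% of all genes in that direction, and on normal diet they overlapped. The log2 difference between ko and wt on normal diet was -0.49, but -0.09 without wt_normal replicate 2 and 0.013 without the 3 libraries that stood apart.

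Egln3 (chromosome 12, 54178981 to 54203860) encodes a hydroxylase whose transcript is strongly induced by HIF in many cell types. It was at 13.8, 19.6 and 8.28 CPM in wt_normal and at 2.90, 6.24 and 4.20 CPM in ko_normal, with 162 to 411 counts against 50 to 125. On HFD it was at 11.7, 15.7 and 17.2 CPM in wt and at 4.67, 7.14 and 7.15 CPM in ko. Each ko library lay below each wt library on both diets. Such a separation was seen in 11.4% of the 14433 genes on normal diet, in 6.85% on HFD and in 0.845% over 6 against 6 libraries, and since Egln3 was chosen for this difference nothing is read from these shares. The fitted log2 difference between ko and wt was -1.64 (SE 0.34) on normal diet, -1.24 (SE 0.34) on HFD and -1.44 (SE 0.24) averaged over both. Without wt_normal replicate 2 it was -1.28 on normal diet and -1.26 averaged, and without all 3 libraries that stood apart it was -1.06 and -1.20.

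Of the secreted products, Vegfa (chromosome 17, 46016993 to 46032369), the main growth factor for blood vessels, was at 78.0, 94.1 and 77.3 CPM in wt_normal and 169, 100 and 129 CPM in ko_normal. It was at 84.2, 68.7 and 100 CPM in wt_HFD and 106, 85.4 and 107 CPM in ko_HFD. Every ko_normal library exceeded every wt_normal library, as 11.4% of all genes did in that direction, and the highest came from ko_normal replicate 1, one of those with many mitochondrially encoded counts. The log2 difference between ko and wt was 0.67 (SE 0.21) on normal diet and 0.24 (SE 0.21) on HFD. Adm (chromosome 7, 110627661 to 110629820), which encodes the vasodilator peptide adrenomedullin, was weakly expressed, with 13 to 42 counts per library. Its levels ran from 0.748 to 2.0 CPM and the groups overlapped in every comparison. The exact 95% Poisson interval, which covers counting error only, was 1.44 to 2.70 CPM for the highest library and 0.398 to 1.28 CPM for the lowest.

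Pfkfb3 (chromosome 2, 11471433 to 11554077) encodes an enzyme that makes fructose 2,6-bisphosphate, an activator of glycolysis. It was at 9.17, 10.6 and 3.73 CPM in wt_normal, 13.3, 8.04 and 10.7 in ko_normal, 5.53, 31.4 and 23.8 in wt_HFD and 45.4, 5.81 and 29.7 in ko_HFD. On HFD, 4 of the 6 libraries were above every normal-diet library and the other 2, 1 of each genotype, were among the low ones, so that the range over all libraries was 12.2-fold, the widest of the set. The summed level of 5 neutrophil markers was 10.5, 23.2 and 22.7 CPM in wt_HFD and 44.7, 5.93 and 7.27 CPM in ko_HFD, against 3.42 to 8.62 CPM on normal diet. The library highest in Pfkfb3 was also the highest in these markers, but ko_HFD replicate 3 was high in Pfkfb3 only. Ly6g had at most 5 counts in any library, and the part of neutrophil transcripts in the Pfkfb3 levels was not tested. In whole tissue, more cells of a type and more RNA per cell cannot be told apart.

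Bnip3 (chromosome 7, 138890836 to 138909519), which encodes a mitochondrial protein that promotes mitophagy, was at 87.3, 132 and 139 CPM in wt_normal, 58.4, 109 and 87.5 in ko_normal, 90.3, 64.8 and 78.6 in wt_HFD and 78.5, 52.7 and 90.2 in ko_HFD. The 2 highest libraries were both wt_normal, and the remaining wt_normal library lay within the range of the other groups. The averaged log2 difference between ko and wt was -0.28, but -0.037 without the 3 libraries that stood apart. Per kilobase of exon it was the most abundant of the 10, with a mean of 39.3 CPM over the 12 libraries.

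Ndrg1 (chromosome 15, 66929318 to 66969640) encodes a stress-responsive protein induced by hypoxia and, in human cells, by p53. Its level was 17.9, 20.6 and 15.2 CPM in wt_normal and 5.68, 8.79 and 6.54 CPM in ko_normal. It was 4.21, 10.4 and 12.6 CPM in wt_HFD and 5.84, 4.37 and 6.96 CPM in ko_HFD. The 3 wt_normal libraries were thus the highest of the 12, full separation from ko_normal being seen in 11.4% of all genes in that direction, and on HFD the genotypes overlapped because wt_HFD replicate 1 was the lowest of all. The log2 difference between ko and wt was -1.35 (SE 0.34) on normal diet and -0.67 (SE 0.34) on HFD, and without the 3 libraries that stood apart it was -1.10 on normal diet. Ankrd37 (chromosome 8, 45996902 to 46005707), which encodes a small ankyrin-repeat protein, had 4 to 27 counts per library and ran from 0.251 CPM (exact 95% Poisson interval 0.0683 to 0.642) to 1.53 CPM (1.01 to 2.23). Its groups overlapped, its log2 difference between ko and wt on normal diet was 0.42 but -0.33 without the 3 libraries that stood apart, and its counts are uncertain because its exons overlap those of Ufsp2 and Lrp2bp on the opposite strand.

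Ordered by mean level per kilobase of exon, which allows genes of different length to be set side by side, Bnip3 at 39.3 CPM came first, then Vegfa at 23.3, Epas1 at 21.4, Egln1 at 7.93, Egln3 at 3.71, Hif1a at 3.14, Pfkfb3 at 2.17, Ndrg1 at 1.51, Adm at 0.753 and Ankrd37 at 0.466. Each gene's range over the libraries overlapped that of its neighbour in this order. These ranges pool the libraries, so they do not show whether neighbours kept their order within each library.

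To ask whether HFD altered the set, HFD was compared with normal diet in each genotype and averaged over both, with edgeR's quasi-likelihood test adjusted over 14433 genes. The stated ground of the choice was Egln3 in ko and not a diet value, but the genes were chosen with earlier results of these data known. HFD in wt also shares its wt_normal libraries with the genotype comparison. No gene of the 10 was called in wt (0.693% of all genes were), in ko (0.0%) or averaged (1.04%), and DESeq2's Wald test called none of the 10 either. At an unadjusted p under 0.05 by edgeR there were 3 of the 10 in wt, 0 in ko and 2 averaged, against 17.0%, 5.63% and 17.6% of all genes. The median log2 difference of the 10 was 0.06 in wt, 0.23 in ko and -0.03 averaged, beside -0.03, -0.0046 and -0.02 over all genes tested.

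The 3 in wt were Egln1, Ndrg1 and Bnip3, all lower on HFD. For Egln1 the log2 difference was -0.71 (95% interval -1.22 to -0.20, edgeR adjusted p = 0.167), and it was -0.31 without the library with muscle transcripts. Ndrg1 differed by -0.98 (interval -1.71 to -0.25, edgeR adjusted p = 0.175), with all 3 HFD libraries below all 3 normal-diet libraries. Bnip3 differed by -0.62 (interval -1.20 to -0.03, edgeR adjusted p = 0.268). In wt the diet groups were fully separated for Egln1, Ndrg1 and Epas1, which makes 3 of 10, beside 21.9% of all genes. In ko, no gene of the set had separated groups, beside 11.4% of all genes, and over both genotypes none had either, beside 1.42%. In ko, Ndrg1 differed by -0.29 (interval -1.04 to 0.45).

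Averaged over both genotypes, Pfkfb3 differed most, by 1.35 (interval 0.32 to 2.39, edgeR adjusted p = 0.172), with log2 differences of 1.37 in wt and 1.34 in ko, the latter 2.01 without the 3 libraries that stood apart. It was called when no gene was filtered out for low counts (adjusted p = 0.0317) and in no other setting. Ndrg1 differed by -0.64 (interval -1.16 to -0.12, edgeR adjusted p = 0.198). Egln3 differed by 0.30 (interval -0.22 to 0.82, edgeR adjusted p = 0.537), or 0.48 without wt_normal replicate 2, Epas1 by 0.38 (interval -0.04 to 0.81) and Hif1a by 0.23 (interval -0.04 to 0.50). Each of these last 3 intervals includes 0, and a missed threshold does not show that HFD left the genes alone. Beside these values, 6 periportal hepatocyte markers summed to 6470 to 9424 CPM on normal diet and to 2198 to 5644 CPM on HFD, with 4 of the 6 called lower, while the 8 pericentral markers overlapped and none was called. The part of zonal markers in the diet values of the 10 genes was not tested.

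**Figure D2:**
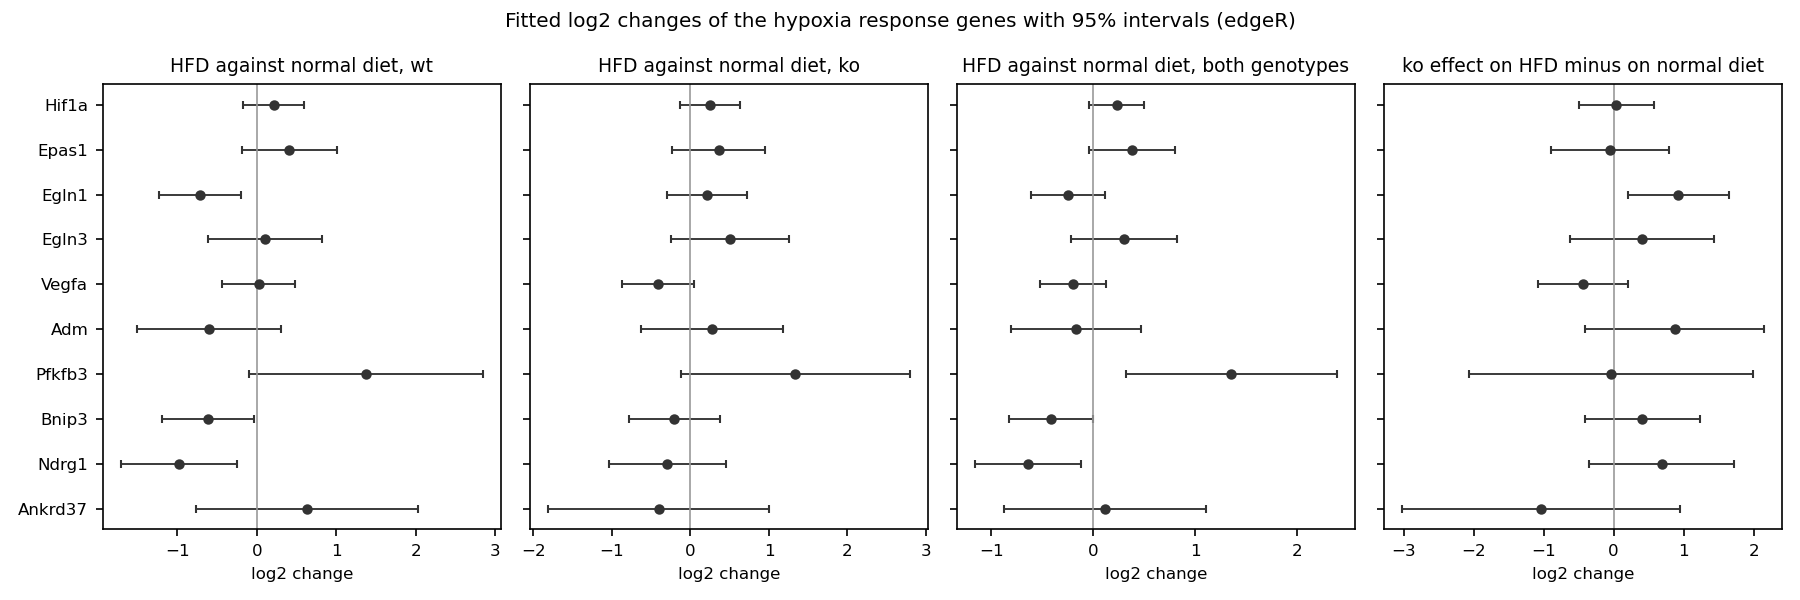
Fitted log2 difference of each gene with its 95% interval (edgeR, 12 libraries) for HFD against normal diet in wt, in ko and over both genotypes, and for the ko effect on HFD minus that on normal diet. Each panel has its own axis; no gene passed an adjusted p under 0.05, and Pfkfb3 has the widest interval in every panel.

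Whether the genotype difference itself depended on the diet was tested as the ko effect on HFD minus the ko effect on normal diet. None of the 10 was called by edgeR or DESeq2, as was none of all genes by edgeR (0.0%), and 1 of the 10 had an unadjusted p under 0.05, beside 5.02% of all genes. That gene was Egln1, which differed by 0.92 (interval 0.20 to 1.65, edgeR adjusted p = 0.913) and by 0.52 without wt_normal replicate 2. For Egln3 the difference was 0.40 (interval -0.63 to 1.44, edgeR adjusted p = 0.999), 0.04 without that library and -0.27 without the 3 that stood apart, so no dependence of its genotype difference on the diet was detectable. Ndrg1, whose groups separated on normal diet and overlapped on HFD, differed by 0.69 (interval -0.35 to 1.72, edgeR adjusted p = 0.995), and Vegfa by -0.44 (interval -1.08 to 0.21, edgeR adjusted p = 0.995), or -0.23 without the 3 libraries.

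Marker sums that differed with genotype are given beside the Egln3 values. The 7 endothelial markers summed to 286 to 330 CPM in wt_normal and 154 to 218 CPM in ko_normal, without overlap. On HFD the sums overlapped, at 193 to 289 CPM in wt and 141 to 240 CPM in ko. All 7 had a negative averaged ko difference and 1 was called. The median averaged log2 difference of the 7 was -0.71, beside -1.44 for Egln3. It was -0.96 beside -1.64 on normal diet and -0.32 beside -1.24 on HFD. The defining endothelial markers Pecam1 and Cdh5 were present in every library, at 7.09 to 36.0 and 6.07 to 35.8 CPM. Both maxima came from wt_normal replicate 2, and the other libraries reached 20.4 and 20.3 CPM. Without that library the endothelial sums in wt_normal were 286 and 321 CPM, still above those in ko_normal. The hepatocyte sum was 36584 to 49096 CPM in wt and 65206 to 73651 CPM in ko without overlap, mostly through Alb, while 3 of the 5 genes had a positive averaged ko difference (median 0.37) and 1 was called. The sum of 10 clock genes was 191 to 316 CPM in wt and 335 to 667 CPM in ko. Of the 10, 5 had a positive and 5 a negative averaged ko difference (median 0.05, 3 called). These opposite differences offset each other in the median. On normal diet Dbp was at 2.04 to 13.5 CPM in wt and 97.3 to 191 CPM in ko. Bmal1 was at 8.09 to 17.1 and 1.04 to 3.19 CPM there, while Per1 overlapped, at 66.5 to 86.0 and 37.5 to 116 CPM. On HFD Dbp overlapped, at 6.52 to 83.6 CPM in wt and 74.6 to 125 CPM in ko. The part of any of these in the Egln3 levels was not tested.

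**Figure D3:**
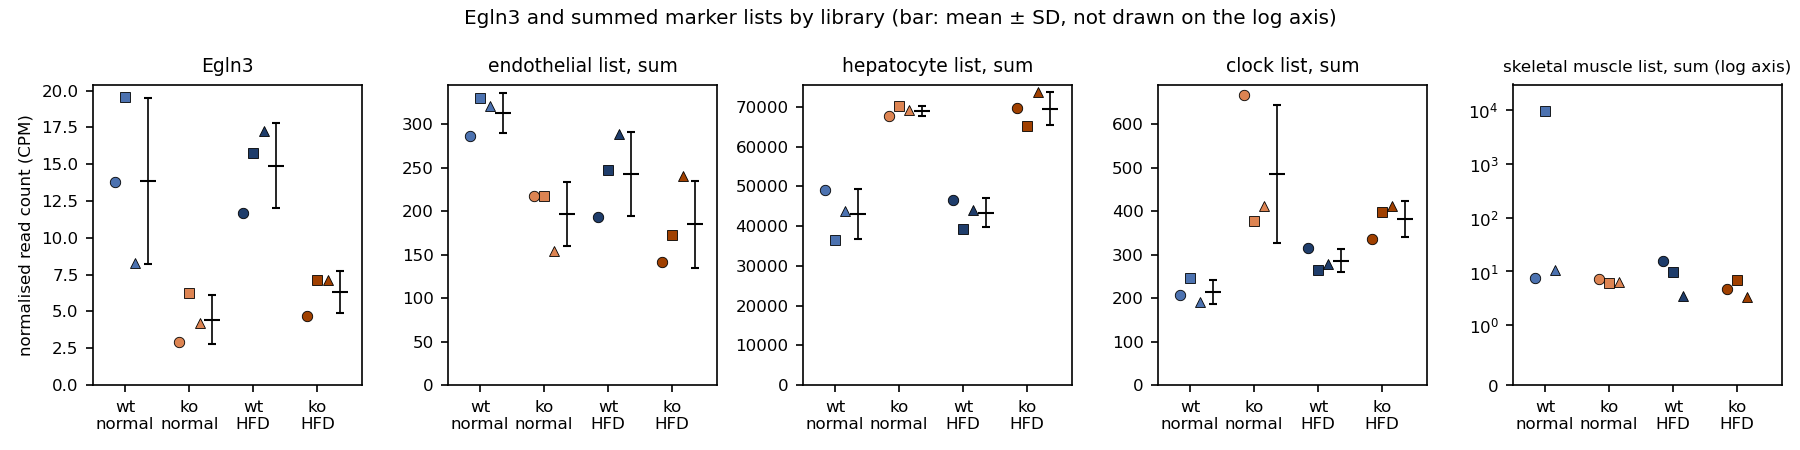
Egln3 and the summed levels of the endothelial, hepatocyte, clock and skeletal muscle lists in each library (CPM; the muscle panel has a log axis that is linear below 1), with circles, squares and triangles for replicates 1, 2 and 3 and bars for the mean ± SD of 3 libraries. The hepatocyte and clock sums separate the genotypes and are higher in ko, where Egln3 is lower. The endothelial sums are lower in ko without overlap on normal diet and overlap on HFD. The muscle sum of 9837 CPM is that of wt_normal replicate 2.

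The tested genes whose log2 CPM followed Egln3 most closely over the 12 libraries were Larp7 (Pearson r 0.94), Gpihbp1 (0.93), 2810025M15Rik (0.92), Cachd1 (0.92) and Rrp15 (0.92). Over the 11 libraries other than wt_normal replicate 2 they were Mfsd6 (0.96), Gpihbp1 (0.94), Larp7 (0.93), Galnt10 (0.93) and Ak6 (0.92). Gpihbp1 encodes the endothelial protein that carries lipoprotein lipase to the capillary surface. It was at 56.8 CPM in wt_normal replicate 2, the library with muscle transcripts, and at 21.0 to 37.4 CPM in the other wt libraries. In ko it ran from 11.3 to 21.4 CPM, and only the highest ko library exceeded a wt library. Within the set, Ndrg1 followed Egln3 with r = 0.62 and Vegfa ran against it with r = -0.74. These coefficients are descriptions over libraries that share the 2 genotypes. A gene that is lower in ko therefore tends to a high r, and a gene that is higher in ko to a negative one.

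The other genes of the pathway were taken as 64 genes in 5 lists, of which 57 could be tested. These lists were also chosen with earlier results of these data known. None passed the edgeR threshold in any of the 7 comparisons. For ko against wt, 0.208% of all genes did on normal diet, 0.0693% on HFD and 1.16% averaged. For HFD against normal diet, 0.693% did in wt, 0.0% in ko and 1.04% averaged, and for the difference of the ko effects 0.0%. At shares this low, the lack of a call among 57 genes does not set them apart. At an unadjusted p under 0.05 there were 16 of 57 in ko against wt on normal diet, 6 on HFD and 14 averaged, beside 15.1%, 8.85% and 18.7% of all genes. There were 14 in HFD against normal diet in wt, 3 in ko, 11 averaged and 4 for the difference of the ko effects, beside 17.0%, 5.63%, 17.6% and 5.02% of all genes. Averaged over the diets, 43 of the 57 had a negative ko difference, with a median of -0.27 beside -0.01 over all genes, and -0.16 without the 3 libraries that stood apart. DESeq2 called 10 of the 57 in that comparison, 7 lower and 3 higher, and 7 in ko against wt on normal diet, 6 lower and 1 higher. Of all 14433 genes it called 860 and 529 in these 2 comparisons. For HFD against normal diet DESeq2 called 2 of the 57 in wt and 3 averaged, beside 654 and 807 of all 14433 genes. With no filter on low counts, edgeR called 8 pathway genes in each of these genotype comparisons, 5 for HFD in wt and 3 for HFD averaged. Over all genes that setting called 644 in ko against wt averaged, 648 on normal diet, 696 for HFD in wt and 489 for HFD averaged.

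Among the other components of the machinery, Egln2, the third HIF prolyl hydroxylase gene, was at 64.1, 102 and 80.9 CPM in wt_normal, 43.1, 76.3 and 57.3 in ko_normal, 70.3, 80.1 and 91.6 in wt_HFD and 60.9, 43.6 and 42.3 in ko_HFD. The ko libraries on HFD were all below the wt ones, as in 6.85% of all genes in that direction. The log2 difference there was -0.72 (SE 0.24, edgeR adjusted p = 0.440), which did not pass. Cited2, which encodes a competitor of HIF for the coactivators, was at 13.7 to 20.4 CPM on normal diet and 3.85 to 13.2 CPM on HFD, without overlap over 6 against 6 libraries, which in this direction was the case for 0.686% of all genes. Its averaged difference was -0.93 (SE 0.25, edgeR adjusted p = 0.0981). DESeq2 gave it an adjusted p of 0.0175. Of the 12 tested genes of the machinery, 5 had a positive and 7 a negative ko difference averaged over the diets.

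All 6 tested angiogenesis and vascular genes had a negative averaged ko difference, with a median of -0.80, which was -0.52 without wt_normal replicate 2 and -0.39 without the 3 libraries that stood apart. Kdr, the endothelial receptor for VEGFA, was at 29.5, 30.6 and 36.6 CPM in wt_normal, 11.5, 20.5 and 12.9 in ko_normal, 14.4, 26.3 and 17.3 in wt_HFD and 10.5, 14.7 and 15.9 in ko_HFD. Its log2 difference was -1.11 on normal diet (SE 0.27, edgeR adjusted p = 0.0993) and -0.80 averaged (SE 0.19, edgeR adjusted p = 0.0616). DESeq2 gave the averaged difference an adjusted p of 0.00554. Kdr is itself made by endothelial cells, whose marker sums were 286 to 330 CPM in wt_normal and 154 to 218 CPM in ko_normal. On HFD they were 193 to 289 CPM in wt and 141 to 240 CPM in ko. The part of these cells in the Kdr levels was not tested.

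In the glycolysis list, 13 of 17 genes had a negative averaged ko difference (median -0.33), but the median was 0.04 without the 3 libraries that stood apart. Members of this list were high in the library with muscle transcripts: Pkm was at 229 CPM and Hk2 at 21.2 CPM in wt_normal replicate 2, against at most 40.1 and 1.64 CPM in the other libraries. Pkm had the smallest p for the difference of the ko effects, 2.35 (SE 0.94, edgeR adjusted p = 0.914), which was 0.44 without that library. Pdk1, which encodes a kinase that keeps pyruvate out of the mitochondrial citric acid cycle, was at 23.3 to 34.0 CPM on normal diet and 16.5 to 27.4 CPM on HFD, with an averaged diet difference of -0.42 (SE 0.11, edgeR adjusted p = 0.0823, DESeq2 adjusted p = 0.0204). Gapdh ran from 15.8 to 303 CPM and differed by 2.32 between ko and wt on HFD (SE 0.83, edgeR adjusted p = 0.463), a value that is uncertain since Gapdh has near-identical pseudogene copies.

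Of the remaining targets, Bhlhe40, which encodes a repressor that also acts in the circadian clock, was at 8.86, 19.6 and 10.3 CPM in wt_normal and at 27.4 to 73.1 CPM in the other 9 libraries. It differed by 1.66 between ko and wt on normal diet (SE 0.43, edgeR adjusted p = 0.111) and by 1.71 between HFD and normal diet in wt (SE 0.43, edgeR adjusted p = 0.0894). DESeq2 gave these differences adjusted p-values of 0.00646 and 0.00338. Both comparisons rest on the same wt_normal libraries. Its ko effect differed between the diets by -1.35 (edgeR adjusted p = 0.970). Lox, which encodes a collagen cross-linking enzyme made by stellate cells, was at 0.803, 3.67 and 1.12 CPM in wt_normal and at most 1.23 CPM elsewhere, with an averaged ko difference of -2.60 (SE 0.69, edgeR adjusted p = 0.0865, DESeq2 adjusted p = 0.00749) that was -1.68 without the 3 libraries that stood apart. Its highest library was again wt_normal replicate 2, where 7 stellate markers summed to 772 CPM against at most 207 CPM. Most of that sum was Des, at 547 CPM in this library with muscle transcripts, so the sum cannot be read as a level of stellate cells. Dcn was also highest there, at 128 CPM, while Lrat, at 6.24 CPM, lay within the range of the other libraries. P4ha2, a subunit of the collagen prolyl hydroxylase, was at 5.11 to 10.8 CPM in wt_normal and 13.7 to 17.3 CPM in wt_HFD, a difference of 0.95 (SE 0.27, edgeR adjusted p = 0.119, DESeq2 adjusted p = 0.0311).

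**Figure D4:**
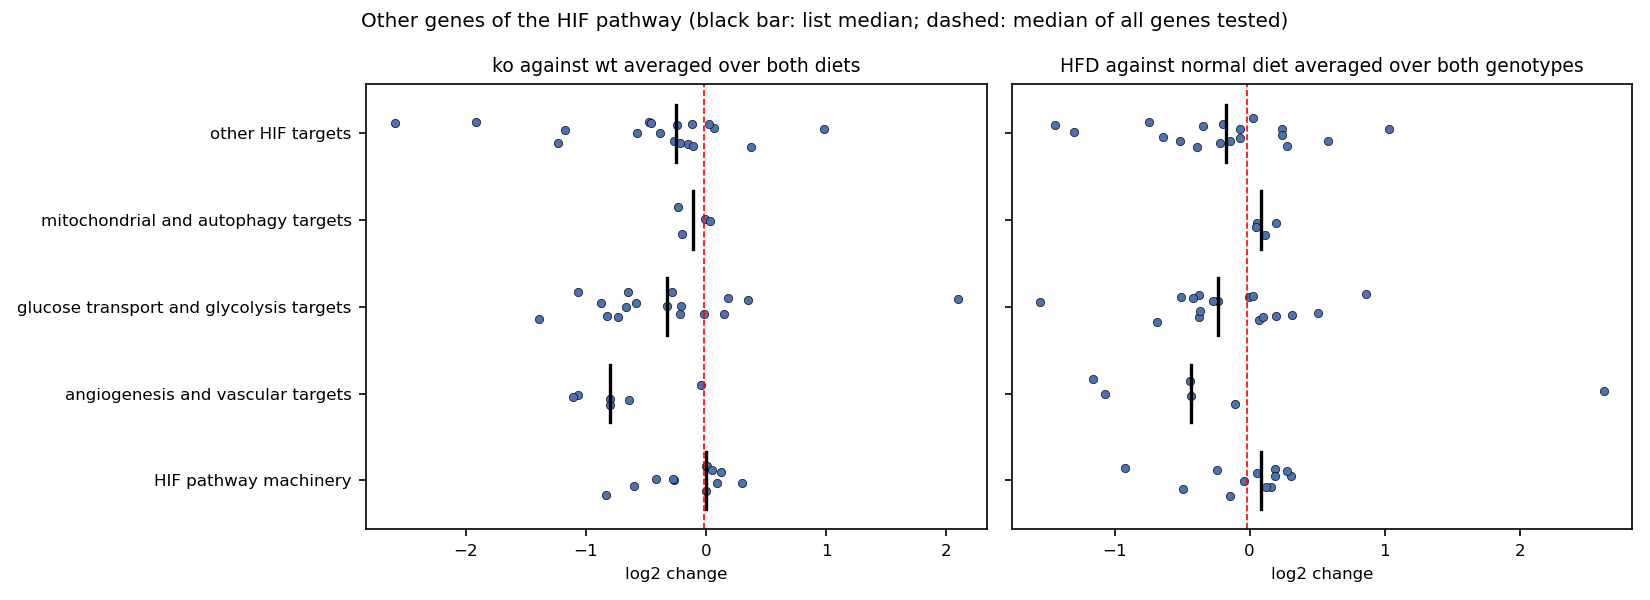
Fitted log2 difference of the 57 other pathway genes by list, for ko against wt over both diets (left) and HFD against normal diet averaged over both genotypes (right); each point is a gene, black bars are list medians and the dashed line is the median of all 14433 genes. All 6 vascular genes lie left of 0 in the genotype comparison and no point passed an edgeR adjusted p under 0.05.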

How the data were processed

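Read counts per gene, as whole numbers, were used for the 12 libraries as the authors deposited them. Per the submitters' processing notes, CASAVA 1.8 and Bowtie 0.12.2 were used, and the builds mm8 and mm9 are named without a role. The sources used here name no counting tool, annotation or strand setting, so reads of antisense or overlapping genes cannot be told apart. Symbols and positions come from GENCODE release M21 on GRCm38, matched by gene identifier, and are not the authors' coordinates.

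Genes were filtered with filterByExpr by group, scaled with TMM and tested with the quasi-likelihood F-test of edgeR 4.0.16 (R 4.3.3) in 1 fit of 4 groups to 12 libraries, with 8 residual and 4.66 prior degrees of freedom. The test was two-sided, p-values were Benjamini-Hochberg adjusted over all 14433 genes tested, and an adjusted p under 0.05 was a call. Group levels are mean CPM ± SD, and 95% intervals of log2 differences rest on the F-test's standard error (SE). Log2 CPM for the correlations used a prior count of 2. Replicate pairs within a group differed by chi-square values per degree of freedom of 39.5 to 199 over genes with at least 20 counts, far beyond counting error, so that no library was counted as a repeat of another. Of 18 pairs of same-numbered libraries from different groups, 4 deviated together with r over 0.1 (range -0.21 to 0.33). Of the 12 libraries, 7 correlated best with another of their own number. The labels state no pairing, so numbers were not treated as pairs in the main fit, and a block by number was an alternative.

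The 10 genes and all lists were chosen with earlier results of these data known. Beyond the 10 genes and Trp53, the rule named in each comparison up to 4 called pathway genes, or where none was called the 2 with the smallest p, the 5 genes most like Egln3, and at most 3 markers of a list. Hk2, Ufsp2, Lrp2bp, Dbp, Bmal1, Per1, Des, Dcn and Lrat were named after their values were seen. Alternatives were RLE scaling, removal of mitochondrially encoded genes, DESeq2 1.42.0, no filter, a filter of at least 50 counts in 3 libraries, a fit of only the groups compared, the replicate number as a block and each library left out in turn. Leaving out the 3 libraries that stood apart was added after seeing the data. Arnt2, Pgf, Epo, Cox4i2, Car9 and Car12 were too low to test, and Ero1a was not matched.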

Additional observations from a re-analysis of the deposited data

How the results depend on the processing

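Over 20 alternative settings, 19 of them planned, the log2 differences of the 10 genes and of the pathway genes named by the rule were recomputed 1629 times. Of these, 1575 were counted as unchanged, 19 gained a call, 4 descriptive genotype values moved by more than the spread and 31 changed sign. Unchanged means the same direction and side of the threshold, except in ko against wt for the 10 genes. There it means a move smaller than the spread, whatever the sign or call, so their sign changes and calls are not in the 31 or the 19. Egln3 was lower in ko in every setting, from -1.96 to -1.06 on normal diet, from -1.38 to -1.06 on HFD and from -1.60 to -1.20 averaged.

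The number of genes called depended strongly on the tool. In ko against wt on normal diet, 30 genes were called, and DESeq2 called 529, no filter gave 648, only the groups compared gave 96 and leaving out the 3 libraries that stood apart gave 3. On HFD 10 genes were called, against 95, 51, 6 and 5 in these settings. Averaged over both diets, the main count was 168, against 860 with DESeq2, 644 with no filter and 44 without the 3 libraries. HFD against normal diet called 100 genes in wt, against 654, 696, 34 and 17 in the 4 settings. In ko it called 0, against 36 with DESeq2, 21 with no filter and 2 with only the groups compared. Averaged over both genotypes it called 150, against 807 with DESeq2, 489 with no filter and 28 without the 3 libraries. For the difference of the ko effects the count was 0, against 15 with DESeq2 and 13 with no filter. With each library left out in turn the counts ran from 3 to 84, 2 to 14, 45 to 254, 9 to 131, 0 to 6, 45 to 272 and 0 to 1 in this order. Calls among the 10 genes in ko against wt describe a comparison used to choose them and are no test: on normal diet there were 0, but 2 with DESeq2, 2 with no filter, 1 with only the groups compared and 0 to 1 with 1 library left out. Averaged over the diets there was 1, but 2 with DESeq2, 2 with no filter, 0 without the 3 libraries and 0 to 2 with 1 library left out, 0 when this was ko_normal replicate 3. HFD averaged over both genotypes called 1 with no filter, Pfkfb3. The cause of these changes was not tested.

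With the replicate number as a block, 1 of the 10 genes, again as a description, was called in ko against wt on normal diet instead of 0, Kdr was called in the averaged genotype comparison (adjusted p = 0.0315), and the genes called were 45, 7, 157, 91, 0, 104 and 0 in the order above. The labels state no pairing by number. Correlations of same-numbered libraries ran from -0.21 to 0.33. Of the 12 libraries, 7 correlated best with another library of their own number, more than an even choice among the 3 numbers would give. Whether same-numbered libraries share a structure was not tested.

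As a description, ko against wt also changed sign between settings. Averaged over the diets, Egln1 ran from -0.12 to 0.27 and Adm from -0.15 to 0.30. Epas1 ran from -0.11 to 0.31 and Ankrd37 from -0.58 to 0.21. On HFD, Bnip3 ran from -0.25 to 0.12, Epas1 from -0.34 to 0.24 and Pfkfb3 from -0.19 to 0.90. On normal diet, Ankrd37 ran from -0.33 to 0.98, Egln1 from -0.66 to 0.013 and Epas1 from -0.14 to 0.38. The following diet differences and differences of the ko effects changed sign, and none of them was called in the fit reported above. Without the 3 libraries, Adm was 0.11 and Vegfa 0.018 for HFD averaged, and Egln3 was -0.27 and Pfkfb3 0.34 for the difference of the ko effects. Under the block, Vegfa was -0.0038 for HFD in wt. With 1 library left out, HFD in wt ran from -0.12 to 0.18 for Vegfa and from -0.16 to 0.46 for Egln3. HFD in ko ran from -0.011 to 0.59 for Epas1, from -0.42 to 0.020 for Bnip3, from -0.017 to 0.55 for Adm and from -0.73 to 0.12 for Ankrd37. HFD averaged ran from -0.19 to 0.39 for Ankrd37. The difference of the ko effects ran from -0.081 to 0.17 for Hif1a, from -0.45 to 0.17 for Epas1 and from -0.68 to 0.44 for Pfkfb3. With at least 50 counts in 3 libraries required, Adm and Ankrd37 gave no value. Their 4 to 42 counts per library limit what can be said of them, and 3 libraries per group limit all single-gene tests.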
